A study of Mus musculus with 6 samples.

Results

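The genes of mitochondrial and peroxisomal fatty acid oxidation were compared between normal and tumor tissues of the liver. The set holds 37 genes out of the 34741 gene names on the array, chosen by name from what their products do. Earlier results of these data were known when it was chosen. All 37 genes were measured by at least 1 probe that passed the filter on dim signals. Total RNA came from 3 normal livers and 3 macroscopic liver tumors of male C3H/HeN mice aged 74 to 75 weeks, an inbred strain in which liver tumors arise spontaneously. Both groups were offspring from the control arm of a project on arsenic exposure during gestation, received CA-1 diet and tap water and no agent, and the tumors carried a Ha-ras mutation by the study's methods. Whether a tumor and a normal liver came from the same mouse is not stated in the sources used here, and nothing says how the arrays were spread over animals, so p-values measure only the spread between these samples, which may be technical. Each RNA was measured on an array of its own, with Cy3 as the dye.

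The liver takes up fatty acids, binds them to Fabp1 and couples them to coenzyme A by acyl-CoA synthetases such as Acsl1. The carnitine shuttle carries long-chain acyl groups into mitochondria, where repeated rounds of dehydrogenation, hydration, a further dehydrogenation and thiolysis release acetyl-CoA, which the liver turns into ketone bodies. Peroxisomes shorten very long and branched chains by a parallel set of enzymes. Many of these genes are textbook targets of the nuclear receptor Ppara, which binds a direct repeat of AGGTCA with 1 base between its parts.

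Most of the set was lower in the tumors. Of the 37 genes, 23 fell and 3 rose at limma's adjusted p under 0.05, where 21.0% of all 18567 genes tested fell and 13.1% rose. The median log2 fold change of the set was -0.64, against -0.13 over all genes tested, and 31 of the 37 values were below 0. A fall of 2-fold or more was called for 8 of the genes, namely Acot1, Acsl1, Acaa1b, Ehhadh, Cpt2, Etfdh, Eci1 and Hsd17b4, while the background share of such falls was 6.84%. The genes that rose were Cpt1a, Bdh1 and Vnn1, the last of which passed the filter on dim signals through the tumors alone. In 25 genes each tumor lay below each normal liver, which held for 33.5% of all genes, and in 4 genes each tumor lay above each normal liver, which held for 18.3%.

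The arrays of normal livers shared 1 slide and those of the tumors another, and thus tissue and slide cannot be told apart. The slides differed in local background, with array medians of 42, 43 and 45 for normal livers 1 to 3. For tumors 1 to 3 these medians were 23, 22.5 and 22. What this difference did to dim probes, such as those of Vnn1, Abcd2 and Acot2, was not tested. The 7 spike-in control probes well above background read 0.04 to 0.22 lower on the log2 scale in the tumors. Scaling the arrays by these controls raised the median of all genes by 0.16 and turned the calls over all genes from 2441 higher and 3905 lower to 2365 higher and 1577 lower. The number of the 37 genes called lower was then 8, and these were the same 8 genes with a fall of 2-fold or more. The distance between the median of the set and that of all genes was -0.51, which a constant added to an array cannot change, and it was -0.38 with normexp background correction and -0.42 with quantile normalization. Of the hepatocyte markers, which include Alb, Ttr and Hnf4a, 1 of 12 fell (Tat), 1 rose (Apoa1) and the median log2 fold change was -0.10. Their summed expression value was 12487 to 13900 in the normal livers and 12242 to 12823 in the tumors. In whole tissue, fewer cells of a type and less RNA per cell cannot be told apart.

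**Figure D1:**
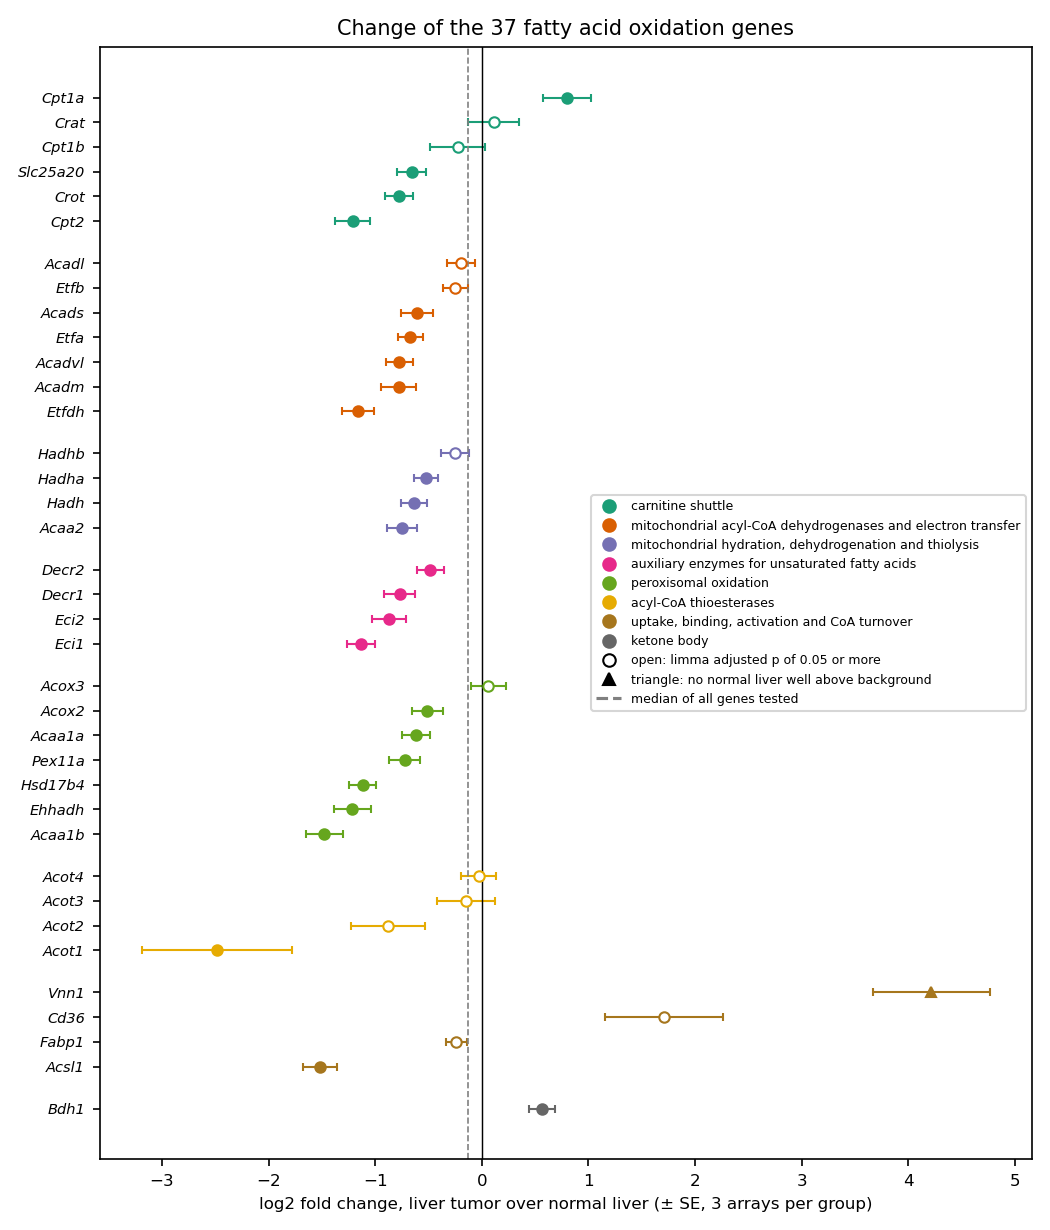
Log2 fold change of each of the 37 genes, liver tumor over normal liver, with its standard error from limma (3 arrays per group), grouped by role. Filled symbols had an adjusted p under 0.05, the triangle is Vnn1, which was well above background in no normal liver, and the dashed line is the median of all genes tested at -0.13. Most filled symbols lie between -0.48 and -1.52, with Cpt1a, Bdh1 and Vnn1 to the right of 0.

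**Figure D2:**
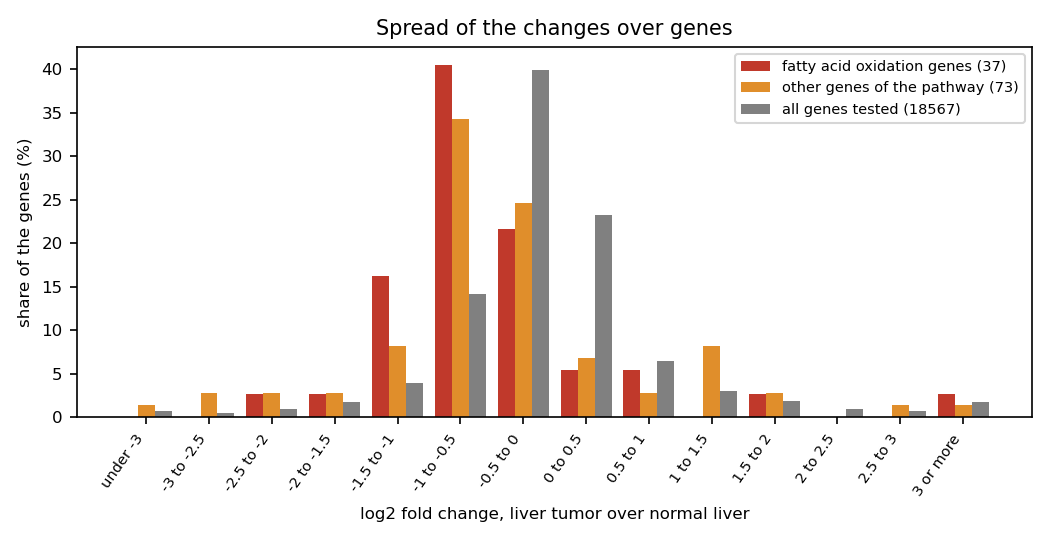
Share of genes (in percent) by log2 fold change, liver tumor over normal liver, for the 37 fatty acid oxidation genes, the 73 tested genes of the rest of the pathway and all 18567 genes tested. The tallest bar of both pathway groups is the one from -1 to -0.5, with 40.5% and 34.2% of the genes, while that of all genes is from -0.5 to 0.

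Upstream sequence is shown for a few of the genes that moved or stayed, because the Ppara element is the best known shared feature of the set. RefSeq sequence of GRCm38.p6 was found for 31 of the 37 genes, and the 250 bases before the gene start were read on both strands. AGGTCA was present upstream of 6 genes (19.4%), namely Cpt1a, Acadm, Acadvl, Acot4, Cd36 and Fabp1, and upstream of 15.8% of all 27025 genes. The full repeat AGGTCANAGGTCA was in none of the 31 windows and in 0.0407% of all genes. With at most 1 mismatch it was present in Fabp1 alone among the 31, against 0.566% of all genes, and with at most 2 mismatches in Etfa, Acot4, Cd36 and Fabp1 (12.9% against 3.72%). CCAAT stood upstream of 54.8% of the set and 37.5% of all genes, and GGGCGG upstream of 58.1% and 35.4%. Capitals mark AGGTCA or its reverse complement, and in Fabp1 also the repeat with 1 mismatch. A match is a description of the letters and not of binding.
Fabp1, chr6:71199629-71199878, plus strand: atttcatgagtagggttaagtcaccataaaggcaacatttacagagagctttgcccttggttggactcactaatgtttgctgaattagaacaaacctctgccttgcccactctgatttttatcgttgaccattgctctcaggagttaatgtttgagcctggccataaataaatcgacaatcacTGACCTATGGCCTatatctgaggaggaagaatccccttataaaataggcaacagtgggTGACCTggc
Acadm, chr3:153944644-153944893, minus strand: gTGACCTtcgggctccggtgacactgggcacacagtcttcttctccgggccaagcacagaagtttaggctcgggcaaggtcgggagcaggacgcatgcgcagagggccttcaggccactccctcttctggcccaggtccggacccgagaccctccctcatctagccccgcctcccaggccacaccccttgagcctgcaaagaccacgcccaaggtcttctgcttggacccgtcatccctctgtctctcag
Acadvl, chr11:70015429-70015678, minus strand: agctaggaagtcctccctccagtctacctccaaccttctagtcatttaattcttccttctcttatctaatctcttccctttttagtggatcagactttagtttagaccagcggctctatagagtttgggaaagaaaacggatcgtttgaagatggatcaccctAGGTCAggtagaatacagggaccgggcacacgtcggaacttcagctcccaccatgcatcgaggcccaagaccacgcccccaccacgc
Cpt2, chr4:107923590-107923839, minus strand: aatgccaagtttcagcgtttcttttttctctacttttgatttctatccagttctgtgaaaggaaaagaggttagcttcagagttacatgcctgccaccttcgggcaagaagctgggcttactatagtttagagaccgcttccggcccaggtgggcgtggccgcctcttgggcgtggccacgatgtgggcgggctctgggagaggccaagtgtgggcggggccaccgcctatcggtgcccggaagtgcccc
Acaa1b, chr9:119157094-119157343, minus strand: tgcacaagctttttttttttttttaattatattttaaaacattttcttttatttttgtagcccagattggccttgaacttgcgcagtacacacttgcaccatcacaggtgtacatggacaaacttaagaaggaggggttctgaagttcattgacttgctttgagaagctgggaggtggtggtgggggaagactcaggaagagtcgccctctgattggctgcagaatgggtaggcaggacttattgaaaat
Acot1, chr12:84009252-84009501, plus strand: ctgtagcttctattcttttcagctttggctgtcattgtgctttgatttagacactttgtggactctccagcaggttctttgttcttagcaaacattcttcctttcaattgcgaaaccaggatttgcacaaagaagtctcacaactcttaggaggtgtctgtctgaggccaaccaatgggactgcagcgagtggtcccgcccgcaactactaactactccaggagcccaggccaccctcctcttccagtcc
Hadhb, chr5:30155003-30155252, plus strand: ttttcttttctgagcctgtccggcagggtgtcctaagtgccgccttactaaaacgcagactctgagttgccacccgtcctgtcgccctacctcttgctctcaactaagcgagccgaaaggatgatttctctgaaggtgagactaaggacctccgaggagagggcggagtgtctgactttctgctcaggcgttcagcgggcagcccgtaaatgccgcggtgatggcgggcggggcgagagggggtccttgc
The repeat in Fabp1 begins at position -67 from the gene start and a further AGGTCA at -9, and the single AGGTCA stands at -249 in Acadm and -87 in Acadvl. Of the 6 genes with AGGTCA in the window, 2 fell (Acadm and Acadvl), 1 rose (Cpt1a) and 3 were not called. Of the 25 without it, 18 fell, 1 rose (Bdh1) and 6 were not called. The difference between these groups was not tested. The stretch of Hadhb is shared with Hadha, which is read from it in the opposite direction, since only 272 bases separate the starts of these genes.

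The genes of the carnitine shuttle moved in both directions, and the only called rise was that of Cpt1a. Cpt1a (chr19:3322326-3385735 in GRCm38.p6), the liver form of carnitine palmitoyltransferase 1 and the controlled entry step, rose, while Cpt2, which reforms the acyl-CoA inside the mitochondrion, and Slc25a20, the carrier across the inner membrane, fell. Of the 6 genes, 3 fell and 1 rose, where 21.0% of all genes tested fell and 13.1% rose. The median log2 fold change of the 6 genes was -0.44. Expression values are linear ratios to the 75th percentile of the array. Cpt1a read 31.4, 37.4 and 43.3 in normal livers 1 to 3 and 86.9, 50.6 and 60.9 in tumors 1 to 3. Every tumor lay above every normal liver, with tumor 1 the highest. The log2 fold change was 0.80 (standard error, SE, 0.23, adjusted p = 0.0381 by limma), and another probe of Cpt1a gave 0.85. The call of Cpt1a was lost on leaving out any array except tumor 2, and its log2 fold change was 0.58 without tumor 1 (adjusted p = 0.0657 by limma).

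Cpt2 read 59.4, 74.8 and 58.1 in the normal livers and 23.0, 29.1 and 31.1 in the tumors, a fall to 43.2% of the normal level. The groups were far apart, and the log2 fold change was -1.21 (SE 0.17, adjusted p = 0.00381 by limma). Another probe of Cpt2 gave -1.10. Slc25a20 fell from 2.96 ± 0.315 (SD, n = 3) to 1.88 ± 0.198 (SD, n = 3). Crot, the peroxisomal carnitine octanoyltransferase, fell by 0.78 on the log2 scale (SE 0.13). Crat, which handles acetyl groups, read 0.564 ± 0.136 (SD, n = 3) and 0.607 ± 0.124 (SD, n = 3) and did not pass the test. Cpt1b, the muscle form, had values between 0.264 and 0.502 on all arrays, and its probes gave -0.23 and 0.71, neither of which was called.

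In the mitochondrial acyl-CoA dehydrogenases and the electron transfer chain that takes their electrons, 5 of 7 genes fell and the others were below 0, with a median log2 fold change of -0.67. The dehydrogenases of very long, medium and short chains, Acadvl, Acadm and Acads, fell by 0.77, 0.78 and 0.61 on the log2 scale. Acadl, the long-chain enzyme, went from 10.4 ± 1.44 (SD, n = 3) to 8.98 ± 0.218 (SD, n = 3), and the groups overlapped. Acads was the least stable of the called dehydrogenases, since leaving out any array except tumor 3 ended its call.

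Etfdh, which passes the electrons to ubiquinone, moved most within this group. It read 72.7, 86.9 and 85.3 in the normal livers and 31.6, 36.3 and 42.2 in the tumors. No tumor came near the lowest normal liver. Its log2 fold change was -1.16 (SE 0.15, adjusted p = 0.00300 by limma). The subunits of the electron transfer flavoprotein differed in size of change, with -0.67 (SE 0.12) for Etfa and -0.25 (SE 0.12, not called) for Etfb. This difference was not tested. Both probes of Etfa gave about the same value, -0.67 and -0.66.

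In the later steps of the mitochondrial spiral, 3 of 4 genes were called lower, with values from -0.52 to -0.75 and a median log2 fold change of -0.58 over the 4. None of them fell by 2-fold. Acaa2, the mitochondrial thiolase, fell from 637 ± 47.7 (SD, n = 3) to 381 ± 49.1 (SD, n = 3), and Hadh, the dehydrogenase of shorter chains, from 74.0 ± 9.07 (SD, n = 3) to 47.4 ± 1.29 (SD, n = 3). Hadha and Hadhb code for the subunits of the trifunctional protein and start from the shared stretch shown above. Hadha read 8.02, 7.81 and 8.03 in the normal livers and 5.08, 5.56 and 6.003 in the tumors, without overlap, for a log2 fold change of -0.52 (SE 0.11, adjusted p = 0.0143 by limma). Hadhb read 55.7, 61.7 and 70.3 against 48.9, 51.1 and 57.2, so that tumor 3 lay above normal liver 1, and its log2 fold change of -0.25 (SE 0.13, adjusted p = 0.187 by limma) did not pass. The subunits were not tested against each other.

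All 4 auxiliary enzymes that prepare unsaturated chains for oxidation fell, with a median log2 fold change of -0.82. Eci1, the mitochondrial enoyl-CoA isomerase, read 64.6, 69.8 and 76.2 in the normal livers and 28.0, 32.6 and 35.6 in the tumors, the tumors reading less than every normal liver. The log2 fold change of Eci1 was -1.13 (SE 0.13, adjusted p = 0.00238 by limma). Its peroxisomal counterpart Eci2 fell by 0.87 on the log2 scale. Decr1 and Decr2, the mitochondrial and peroxisomal dienoyl-CoA reductases, fell by 0.77 and 0.48. The call of Decr2 was lost in 12 of 18 alternative settings, among them quantile normalization, normexp background correction and the omission of any array except normal liver 1.

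Peroxisomal oxidation fell in 6 of 7 genes, with a median log2 fold change of -0.72. Acaa1b, a peroxisomal thiolase, read 98.1, 138 and 114 in the normal livers and 35.4, 46.7 and 43.2 in the tumors. The highest tumor was far below the lowest normal liver. The log2 fold change of Acaa1b was -1.48 (SE 0.17, adjusted p = 0.00224 by limma). Acaa1a, its near neighbour on chromosome 9 and close relative, fell by 0.62 (SE 0.13). The brightest probes of these relatives share at most 22 matching bases of 60 in any ungapped alignment.

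Ehhadh and Hsd17b4, the bifunctional enzymes of the middle steps in peroxisomes, both fell. Ehhadh read 26.5, 38.5 and 35.2 in the normal livers and 12.5, 15.0 and 15.4 in the tumors, which gave a log2 fold change of -1.21 (SE 0.18, adjusted p = 0.00440 by limma). Hsd17b4 read 169.7, 182 and 165 against 69.5, 82.6 and 86.8, with -1.12 (SE 0.13, adjusted p = 0.00198 by limma). In neither gene did the groups overlap, and the tumors lay close together. Pex11a, a membrane protein of peroxisome division, fell by 0.72 on the log2 scale, and Acox2, the branched-chain acyl-CoA oxidase, by 0.51. The call of Acox2 was lost in 10 of 18 alternative settings, among them quantile normalization (-0.32), normexp (-0.38) and the omission of normal liver 2, normal liver 3, tumor 1 or tumor 3.

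For Acox3, another branched-chain oxidase, the answer depended on the probe. The brightest probe, at chr5:35952411-35952470 on the plus strand of mm9 and open in 1 reading frame, read 14.8, 11.3 and 11.2 in the normal livers and 14.8, 12.6 and 11.5 in the tumors, so the groups overlapped throughout. Its log2 fold change was 0.06 (SE 0.16, adjusted p = 0.804 by limma). The other probes of Acox3 were both called lower, with -0.62 (SE 0.13, adjusted p = 0.0156 by limma) and -0.65 (SE 0.19, adjusted p = 0.0413 by limma). The sequence of the brightest probe is given because the level of the gene rests on it.
Acox3, probe A_55_P1971574: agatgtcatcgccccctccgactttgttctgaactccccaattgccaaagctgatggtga
Acox3 was the 1 gene whose probes differed in call among the 8 with several tested probes. The 29 other genes had a single tested probe.

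**Figure D3:**
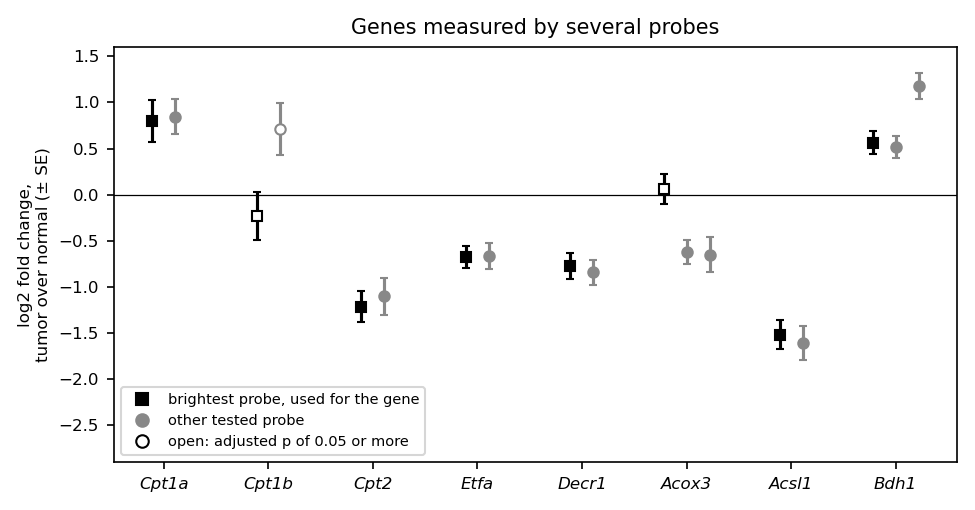
Log2 fold change, liver tumor over normal liver, with its standard error, for each tested probe of the 8 genes with several. Squares are the brightest probes, which stand for the gene, circles are the others, and open symbols had an adjusted p of 0.05 or more. The probes of Cpt1a, Cpt2, Etfa, Decr1 and Acsl1 lie within 0.11 of each other, those of Bdh1 spread from 0.52 to 1.18, and those of Acox3 and Cpt1b lie on both sides of 0.

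Among the acyl-CoA thioesterases, which release free fatty acids from acyl-CoA, Acot1 gave the largest fall of the set and the widest spread. Acot1, the cytosolic enzyme, read 8.19, 13.4 and 9.69 in the normal livers and 0.609, 4.77 and 2.10 in the tumors. The tumors lay below all normal livers but differed among themselves, with tumor 1 far below the other tumors. The log2 fold change of Acot1 was -2.48 (SE 0.70, adjusted p = 0.0368 by limma). Without tumor 1 it was -1.69 (adjusted p = 0.0277 by limma), and without any 1 of the normal livers or tumor 3 the call was lost. Acot2, the mitochondrial enzyme, read 0.194, 0.187 and 0.148 in the normal livers and 0.163, 0.0622 and 0.0859 in the tumors, and its probe was well above background in only 1 tumor. It did not pass the test (-0.88, adjusted p = 0.0967 by limma). The probe of Acot2 passed the filter on dim signals through the normal livers alone. Leaving out tumor 1, the tumor with the signal above background, left no tumor reading well above background. Acot2 was then called lower (adjusted p = 0.00905 by limma), a call that rests on such dim readings. Under the main scaling, the other tumors then give only a bound, with the normal livers at least 1.80-fold higher by the mean of the log2 values. Acot3 and Acot4, both peroxisomal, had log2 fold changes of -0.15 and -0.03 and overlapping groups. The 4 genes lie side by side on chromosome 12 between 83987861 and 84060400 of GRCm38.p6 and are close relatives. Their brightest probes share 21 to 25 matching bases of 60 at most in any ungapped alignment, and a match of the probes to the transcripts of the relatives was not tested.

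Uptake, binding and activation held changes in both directions. Acsl1 (chr8:46471037-46536051 in GRCm38.p6), a long-chain acyl-CoA synthetase of the liver, fell to 34.9% of the normal level. It read 325, 383 and 353 in the normal livers and 100.4, 137 and 136 in the tumors. The highest tumor stayed far below the lowest normal liver, and the log2 fold change was -1.52 (SE 0.16, adjusted p = 0.00154 by limma). Another probe of Acsl1, at chr8:47619774-47619833 on the plus strand of mm9 and open in 1 reading frame, gave -1.61.
Acsl1, probe A_51_P463452: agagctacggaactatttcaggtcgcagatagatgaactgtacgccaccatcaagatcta
Fabp1, the liver fatty acid binding protein, read 1234, 1179 and 1129 in the normal livers and 983, 1000.0 and 1019 in the tumors. All tumors were below all normal livers, but the log2 fold change of -0.24 (SE 0.10, adjusted p = 0.113 by limma) did not pass.

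Vnn1 (chr10:23894688-23905344 in GRCm38.p6), the pantetheinase that recycles pantothenate from the breakdown of coenzyme A, rose. Its probe was well above background in no normal liver, with readings of 0.153, 0.0617 and 0.0932, and read 3.93, 1.09 and 1.31 in the tumors. Tumor 1 was again apart from the other tumors. A bound was taken against the higher of the probe's own signal and the lowest signal well above background on each array. By the mean of the log2 values, the tumors were at least 13.99-fold higher in Vnn1 (adjusted p = 0.00319 by limma, and 0.0124 with no filter on dim signals). This bound belongs to the main scaling, and tumor 1 raised it. With normexp background correction the log2 fold change of Vnn1 was 2.11 (adjusted p = 0.00244 by limma). Cd36, a fatty acid translocase that macrophages, endothelial cells and adipocytes also carry, read 0.434, 1.29 and 0.259 in the normal livers and 1.71, 1.48 and 1.998 in the tumors. The groups did not overlap, normal liver 2 stood close to the tumors, and the log2 fold change of 1.71 (SE 0.55, adjusted p = 0.0546 by limma) did not pass the threshold. Cd36 was called higher in 5 of 18 alternative settings, namely normexp (1.13), spike-in scaling (1.86), probes well above background on all 6 arrays, an intensity trend, and without normal liver 2 (2.35, adjusted p = 0.00584 by limma). Of 7 tested macrophage markers 5 fell and none rose (summed value 73.4 to 117 in the normal livers, 37.2 to 58.7 in the tumors). Of 8 endothelial markers 2 fell (Stab2 and Clec4g) and none rose (108 to 122, and 84.6 to 93.6). Over all genes tested, 21.0% fell and 13.1% rose. Of the adipocyte markers, Adipoq, Plin1, Lep and Retn were not well above background on any array, and both tested ones, Fabp4 and Cidec, rose (summed value of the list 2.79 to 3.58, and 9.68 to 19.0). The part of these cells in the values of Cd36 was not tested.

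Bdh1 (chr16:31422297-31458901 in GRCm38.p6), the mitochondrial hydroxybutyrate dehydrogenase that reduces acetoacetate in the making of ketone bodies, rose. It read 87.3, 99.4 and 96.7 in the normal livers and 155, 137 and 128 in the tumors, without overlap. Its log2 fold change was 0.56 (SE 0.12, adjusted p = 0.0161 by limma), and the other probes of Bdh1 gave 0.52 and 1.18, both called. With spike-in scaling the adjusted p of limma for Bdh1 was 0.0508, with a log2 fold change of 0.72.

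**Figure D4:**
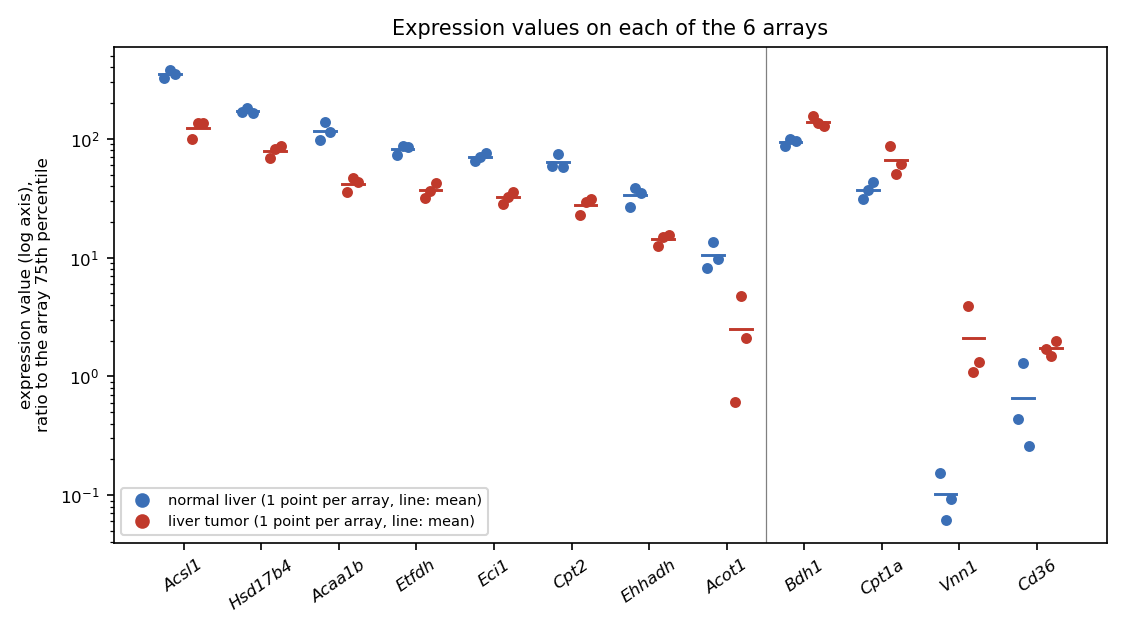
Expression value (ratio to the 75th percentile of the array, log axis) of 12 genes on each of the 6 arrays, with 1 point per array and a line at the group mean. To the left of the vertical line are the 8 genes called lower by 2-fold or more, in which no tumor reached the lowest normal liver, and to the right Bdh1, Cpt1a, Vnn1 and Cd36, in which every tumor lay above every normal liver. Tumor 1 reads 0.609 for Acot1 and 3.93 for Vnn1, apart from the other tumors.

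By the median over the set, the arrays of a group were close to each other. The median over the 37 genes of the log2 difference from the normal mean was -0.13, 0.09 and 0.00 in normal livers 1 to 3 and -0.65, -0.65 and -0.56 in tumors 1 to 3. Among the 23 genes called lower, tumor 1 was the lowest tumor in 18 and normal liver 1 the lowest normal liver in 18. Over all 18567 genes tested, tumor 1 was the lowest tumor for 6622 and normal liver 1 the lowest normal liver for 7259. The median SD of the called genes was 0.15 among normal livers and 0.18 among tumors on the log2 scale.

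Related enzymes, not all of which do the same step, were compared as 9 pairs by an exact permutation test over the 6 arrays. The smallest two-sided p of this test is 0.1. The log2 fold change of Acaa1a minus that of Acaa1b was 0.86. For Crat minus Crot, which handle acyl groups of different length, the difference was 0.89. In both pairs the arrays of the groups did not overlap (exact permutation p = 0.1, adjusted p = 0.30 over the 9 pairs). For Eci1 minus Eci2 the difference was -0.26, also without overlap (exact permutation p = 0.1, adjusted p = 0.30). The difference between Ehhadh and Hsd17b4 was -0.10, with overlapping arrays (exact permutation p = 0.4). In the other 5 pairs the arrays overlapped and the exact p was 0.2 to 0.7. No pair passed the threshold, which this exact test cannot reach with 3 arrays against 3.

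The other genes of the pathway moved mostly in the same direction. Of 73 tested genes, 38 fell and 10 rose, where 21.0% of all genes tested fell and 13.1% rose, and the median log2 fold change was -0.56. Of 22 further oxidation enzymes 17 fell and 1 rose (median -0.75), and of 15 genes of peroxisome assembly 8 fell and none rose (median -0.41). The largest called falls were those of Acsm5, Nudt7 and Acsm1. Acsm5, a medium-chain synthetase of mitochondria, read 17.5 to 19.7 in the normal livers and 1.11 to 5.38 in the tumors (log2 fold change -2.68, SE 0.56). Nudt7, a peroxisomal hydrolase of coenzyme A, read 215 to 269 and 17.2 to 90.3 (log2 fold change -2.51, SE 0.56). Acsm1, a relative of Acsm5, read 119 to 127 and 13.6 to 35.4 (log2 fold change -2.33, SE 0.35). In each of these genes tumor 1 was the lowest tumor.

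The largest called rises were those of Abcd2, Fabp5 and Fabp4. Abcd2, a peroxisomal transporter of very long chains, was well above background in no normal liver, and so passed the filter through the tumors alone. It read 0.716 to 0.898 in the tumors and, by the mean of the log2 values, was at least 6.82-fold higher there (adjusted p = 3.09e-05 by limma, and 0.000279 with no filter). This bound too belongs to the main scaling, and what the difference in local background between the slides did to it was not tested. Fabp5 read 30.3 to 84.4 in the normal livers and 293 to 429.5 in the tumors, and Fabp4 read 2.31 to 2.93 and 6.59 to 11.9. Both are fatty acid binding proteins, Fabp5 known from skin and Fabp4 from fat and macrophages. Of 15 genes of other uptake and activation, 7 fell and 6 rose, a list with a median of -0.18.

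A few more genes of these lists were picked after their values were seen. Acsl3, Acsl4 and Acsl5, relatives of Acsl1, rose by 1.03, 1.05 and 1.28 on the log2 scale, in the direction opposite to Acsl1. Of 7 further genes of ketone body metabolism, 3 fell and 1 rose. Ppara itself read 78.0 ± 13.2 (SD, n = 3) in normal liver against 59.3 ± 2.82 (SD, n = 3) in tumor tissue and did not pass the test (adjusted p = 0.103 by limma). Of the 15 genes listed as Ppara, its relatives, coactivators and further targets, 4 fell, 2 rose and 9 were not called, with a median log2 fold change of -0.64. These counts were near the shares over all genes tested, of which 21.0% fell and 13.1% rose. Those that fell were its partner Rxra (-0.81), Creb3l3 (-0.66), Angptl4 (-1.83) and Cyp4a10 (-1.64), and those that rose were Plin2 (1.44), which coats lipid droplets, and Pparg (1.03). The lowest value of the list was that of Cyp4a12a, at -4.32 (SE 1.41, adjusted p = 0.0565 by limma, not called). It read 67.0 to 90.7 in the normal livers and 0.336, 11.8 and 15.9 in tumors 1 to 3, with tumor 1 far below the other tumors. Fgf21, Pdk4, Cyp4a14 and the coactivator Ppargc1a were not called either.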

How the data were processed

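The authors scanned each array with Agilent Feature Extraction and deposited its output per array, with the processed signal intensity after background subtraction and spatial detrending. The version is 10.7.3.1 by the file headers and 12.0.3.1 by the submitters' processing notes. They also deposited a table of the ratio of each processed signal to the 75th percentile of its array. Here the processed signal was divided by that percentile, taken over all spots, and put on the log2 scale, spots of a probe were averaged, and control spots and outlier spots were left out. The 75th percentile of the signal intensity was 124 to 182.6, 42.7% to 46.7% of spots were well above background on an array, and no spot was saturated. The number of arrays limits the precision.

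Of 55681 probes, 24901 reached the well-above-background mark in every array of a group and were kept. Groups were compared by limma 3.58.1 under R 4.3.3, as a two-sided moderated test (lmFit, eBayes), and p was adjusted by Benjamini-Hochberg over all kept probes (threshold 0.05). The brightest tested probe stood for a gene, with 18567 genes in all. Probes were named by RefSeq (GRCm38.p6) through the accession (27235), symbol (3581) or synonym (565), and otherwise by the array's design (24300). Probe coordinates are those of the array's design (mm9). Per-array values are given for each of the 37 genes called with a 2-fold change, called higher or not well above background in a group, and for some others, and the 3 largest rises and falls are named for the rest of the pathway. Some items of the pathway lists are not reported here. Members, lists and tests were chosen with earlier results of these data known. Data were simulated from the normal means and the spreads of 24889 probes of these arrays. Errors were independent, and only a small share of the probes was changed. There limma called 49.3% of the probes changed by 2-fold and 89.6% of those changed by 4-fold, with 11 false calls. A larger share of the probes was called in the arrays themselves, so these rates need not hold for them. Tables were made with pandas 2.3.3 and numpy 2.4.6 under Python 3.11.15, exact tests with scipy 1.17.1, and figures with matplotlib 3.10.9.

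Alternatives were normexp (offset 50), quantile normalization, spike-in scaling, the percentile over non-control probes, other filters on dim probes, the deposited ratio table, a replicate block, an intensity trend in eBayes, the mean of a gene's probes, the methods' t-test on linear values in unpaired and paired form, and leaving out each array.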

Additional observations from a re-analysis of the deposited data

How the results depend on the processing

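Of the 37 genes, 21 were called lower with normexp and with quantile normalization, 23 with the deposited table and 16 to 21 with 1 array left out. The number called lower was 8 with spike-in scaling and 13 without the filter on dim probes, where all probes enter the fit and the adjustment. It was 0 with the paired form of the methods' t-test, by which 21 were lower and 0 higher at an unadjusted p under 0.05. The unpaired methods' t-test called 25 lower and 2 higher at that unadjusted threshold, and 17 lower and 1 higher after Benjamini-Hochberg adjustment. The 1 higher gene was then Bdh1, and neither Vnn1 nor Cpt1a was called. The number called higher was 1 without the filter and 0 with the paired t-test, and 1 to 3 with 1 array left out, the 1 being Vnn1 without normal liver 1. With any 1 array left out, 16 of the 23 lower genes and Vnn1 stayed called. The fewest lower calls, 16, came without normal liver 2. The median log2 fold change of the set was -0.47 with normexp, -0.47 with quantile normalization and -0.48 with spike-in scaling, and -0.72 to -0.58 with 1 array left out. The median of all genes shifted by 0.16 with spike-in scaling and by under 0.1 with the other scalings.

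Of the other pathway genes, 17 were called lower with spike-in scaling, 22 lower and 6 higher without the filter, 5 higher with the unpaired t-test, and 0 in either direction with the paired one. With 1 array left out 25 to 36 were lower and 8 to 10 higher, the fewest lower without normal liver 2. Over all probes, 5127 were lower and 3112 higher. The counts were 2042 lower with spike-in scaling, 2603 lower and 2071 higher without the filter, 1739 higher with the unpaired t-test, 0 and 0 with the paired one, against 7419 probes at an unadjusted p under 0.05, and 2608 to 4367 lower and 2346 to 2804 higher with 1 array left out.

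Sign changes were seen in genes that were not called. Acot4 turned to 0.011 with normexp, 0.0068 with quantile normalization and 0.12 with spike-in scaling, and Acot3 to 0.0040 with spike-in scaling. As the mean of their probes, Acox3 was -0.40 (adjusted p = 0.0483 by limma) and Cpt1b 0.24. With 1 array left out, Acot4 ranged from -0.15 to 0.071, Acot3 from -0.42 to 0.10, Acox3 from -0.039 to 0.19, Crat from -0.094 to 0.29 and the difference between Acot3 and Acot4 from -0.34 to 0.036. The replicate numbers were not taken as pairs, since the labels tie them to no shared animal. Deviations from the group means correlated at 0.07, 0.13 and 0.05 between arrays of the same number, and not every array correlated best with its own number, which leaves unknown whether any came from 1 mouse. With the replicate number as a block, 22 of the genes were lower and 2 higher (Cpt1a and Decr2 were not called), 33 and 10 of the other pathway genes and 4216 and 2805 of all probes.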
